A study of Bos taurus with 6 samples.

Results

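The expression tables of cultured bovine granulosa cells listed 1028 mature bovine miRNAs, and 240 of these, the members, carried names from bta-miR-2286 to bta-miR-2490 once 1 number of that range was left out. The rule took every other name in the range, with any letter or arm suffix, and used no threshold on a measured value. A miRNA is a short RNA that is cut from a hairpin precursor and guides an Argonaute protein to complementary sites in mRNAs, which are then repressed. The hairpin gives a product from each arm, called 5p and 3p, and usually one of them is kept while the other is degraded. miRBase numbers follow the order of registration, so that neighbouring numbers often come from the same cattle sequencing work, and most miRNAs of this range belong to the cattle lineage and have no well studied targets.

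Granulosa cells, the somatic cells that surround the oocyte and make estradiol, were aspirated from small antral follicles of 3 to 6 mm in cattle ovaries from a slaughterhouse and were cultured in DMEM/F12 with exosome-depleted serum. After 24 h of culture at 37 °C, the control group stayed at 37 °C and the heat stress (HS) group was moved to 42 °C, each for a further 24 h. Each group had 3 libraries, which the submitters call biological replicates. The age and breed of the animals and whether each replicate was a separate pool of follicles or only a separate culture are not given in the sources used here, so the p-values measure the spread between these libraries. Small RNA libraries carried unique molecular identifiers, and the deposited value of each miRNA is a read count scaled to the size of its library, called normalised CPM below.

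The 6 libraries held 2076239 to 4590971 reads on miRNAs, and a count of 3 reads, taken as the limit that a count of 0 allows, corresponded to 0.639 to 1.46 normalised CPM. A list of 5 miRNAs of granulosa cells or gonads was detected in full, with a summed level of 146731 to 207717 in control and 167614 to 203496 in HS libraries. Most of this sum was bta-miR-21-5p, with a mean of 182970 normalised CPM over the 6 libraries, followed by bta-miR-202 with 2034. The sum thus mainly gives the level of bta-miR-21-5p, and its use as a measure of granulosa cell identity was not tested. The red blood cell list (0 of 2 detected) summed to 0.557 to 1.95 in control and 0.851 to 2.65 in HS libraries. The leukocyte list (4 of 4 detected) summed to 700 to 843 in control and 614 to 749 in HS libraries, the theca and stroma list (4 of 5 detected) to 1324 to 2083 and 2008 to 2192, and the endothelial list (2 of 2 detected) to 228 to 352 and 131 to 265. No miRNA of these lists, nor of those for liver (1 miRNA) and muscle (3 miRNAs), passed an adjusted p of 0.2 between the groups. In such bulk samples, fewer cells of a type and less RNA per cell cannot be told apart.

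Most members were rare or not seen in granulosa cells. Of the 240 members, 97 (40.4%) had no read in any library, 105 had reads but too few for the test, and 38 (15.8%) were tested. A miRNA was called detected in a group when at least 2 of its 3 libraries reached 10 normalised CPM. By that measure control cells had 19 detected members and HS cells had 17 of these 19. The remaining pair, bta-miR-2403 and bta-miR-2447, fell under the minimum in HS cells, and no member was detected in HS cells alone. Among all 1028 miRNAs, 73.4% had a read and 27.0% were detected in a group, against 59.6% and 7.92% of the members. The miRNAs numbered after the members were closer to them, with a read in 60.9% and detection in 17.3% of those from miR-2491 to miR-10999, and 66.0% and 9.28% of those from miR-11000 upward. The miR-2284 and miR-2285 rows, which form an expanded cattle family, had a read in 86.5% and were detected in 12.2%, and the long-known miRNAs numbered below miR-2284 with let-7 were the most often detected of the number ranges compared.

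**Figure D1:**
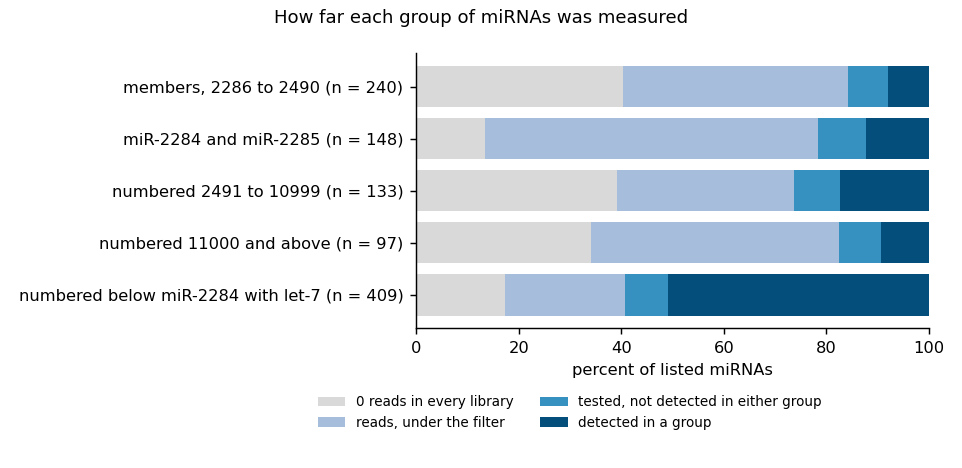
Percent of listed miRNAs (x axis) that had 0 reads in every library, had reads but were too low for the test, were tested without reaching the detection minimum, or were detected in control or HS cells, for 5 groups of miRNAs by number (y axis). The members have the largest share without reads (40.4%) and the smallest detected share (7.92%) of the 5 groups.

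The members took a small part of each library. They held 0.256%, 0.111% and 0.119% of the reads in the 3 control replicates in order, against 0.183%, 0.132% and 0.107% in the HS replicates. The groups overlapped, and the first replicate of each was the highest. The 95% Wilson intervals, which cover counting error only, ran from 0.249 to 0.263% in control replicate 1 and from 0.104 to 0.110% in HS replicate 3. The mean share was 0.162% ± 0.0812 (SD, n = 3) in control and 0.141% ± 0.0387 (SD, n = 3) in HS cells, a difference of -0.0211 percentage points (two-sided exact permutation test, p = 0.80, where 0.1 is the smallest p that 3 against 3 allows). Without control replicate 1 the difference was 0.0258 percentage points and thus had the opposite sign. Between 98 and 105 members had a read in each library. The reads were concentrated, with 29.3% of all member reads on the 2 most abundant members and 77.2% on the top 10.

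bta-miR-2411-3p had the highest mean of the members over the 6 libraries, but it was the top member only in replicate 1 of each group, where it was far higher than in the other replicates. Here and below, a miRNA is said to lie in a gene that overlaps its own RefSeq gene on either strand. By that measure bta-miR-2411-3p lies in UBAP2L, a gene for a ubiquitin-binding protein of stress granules. It measured 823, 45.0 and 54.9 normalised CPM in replicates 1 to 3 of the control, against 517, 155 and 88.8 in those of HS. bta-miR-2332, which lies in UTP6, a gene of ribosome assembly, measured 552, 88.0 and 64.9 in the control and 421, 178 and 103 in the HS libraries. Both were highest in replicate 1 of either group, and the groups overlapped. On the log2(value + 1) scale, bta-miR-2411-3p in replicate 1 stood 4.02 above the mean of the other control replicates and 2.13 above that of the other HS replicates, and bta-miR-2332 stood 2.85 and 1.63 above. Among all 365 tested miRNAs the control gaps ranked 1 and 2 and the HS gaps ranked 2 and 3. The median gap of all tested miRNAs was 0.0010 in control and 0.026 in HS cells. The member bta-miR-2340 also stood higher in replicate 1 of both groups (1.29 and 1.16). So did other miRNAs, such as bta-miR-1246 (2.12 and 2.32) and bta-miR-150 (2.08 and 1.26), while some stood lower, such as bta-miR-96 (-2.03 and -1.42). In the paper's read summary, replicate 1 of each group had the lowest share of reads on annotated miRNAs. Together bta-miR-2411-3p and bta-miR-2332 made up 53.0%, 12.1% and 10.1% of the member reads in the control libraries, against 49.4%, 25.3% and 18.2% in the HS libraries.

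The 5p arm of the same hairpin was lowest in replicate 1 of the control and highest in replicate 1 of HS, with gaps of -0.38 and 0.32. bta-miR-2411-5p measured 2.44, 3.91 and 3.06 in the control and 5.64, 4.62 and 4.04 in the HS libraries, with the groups apart, a log2 fold change of 0.49 ± 0.233 (SE) and an adjusted p of 0.415. For bta-miR-2411-3p the HS mean was lower than the control mean (254 ± 230 against 308 ± 446, SD, n = 3), while the mean difference on the log2 scale was 0.59 ± 1.18 (SE, adjusted p = 0.939). For bta-miR-2332 the means were 234 ± 167 and 235 ± 275 (SD, n = 3), with 0.42 ± 0.866 on the log2 scale (SE, adjusted p = 0.943). With both replicate 1 libraries left out, an alternative chosen after these values were seen, bta-miR-2411-3p was higher in HS cells by 1.22 on the log2 scale (adjusted p = 0.180) and bta-miR-2332 by 0.83 (adjusted p = 0.392). Without control replicate 1 alone the 2 differences were 1.93 and 1.37, and without HS replicate 1 alone they were -0.12 and -0.12. Without this pair, also an alternative chosen after the values were seen, the share of reads in the members was 0.108% ± 0.0112 (SD, n = 3) in control and 0.0932% ± 0.00551 (SD, n = 3) in HS cells, a difference of -0.0152 percentage points (exact permutation test, p = 0.20).

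**Figure D2:**
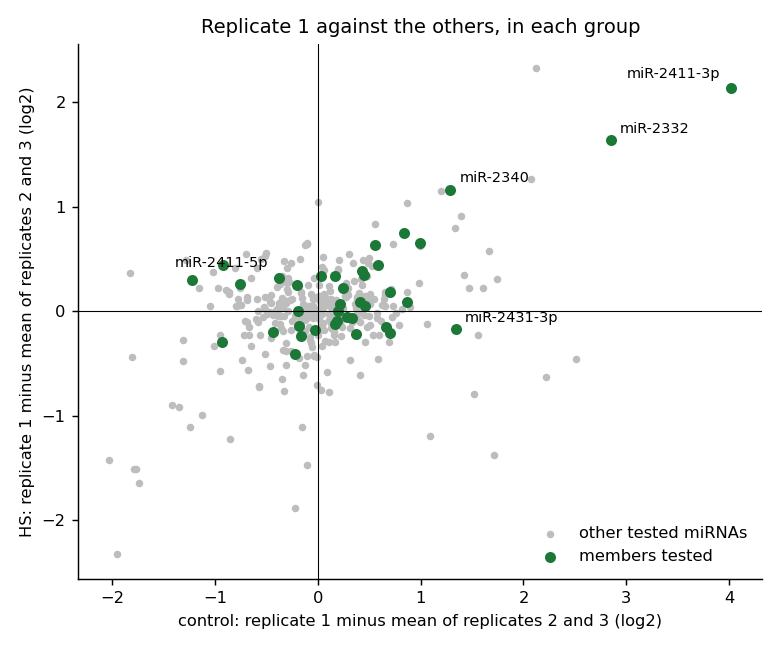
Gap between replicate 1 and the mean of replicates 2 and 3, in log2(value + 1), for control (x axis) and HS cells (y axis); each point is 1 of the 365 tested miRNAs. bta-miR-2411-3p (4.02 and 2.13) and bta-miR-2332 (2.85 and 1.63) lie at the upper right, while bta-miR-2411-5p is at -0.38 in control and 0.32 in HS cells.

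Most other abundant members varied less between replicates. bta-miR-2483-5p, in the teneurin gene TENM1, measured 192, 124 and 159 in the control and 164, 135 and 124 in the HS libraries (log2 fold change -0.15 ± 0.211, adjusted p = 0.841). Its partner bta-miR-2483-3p measured 51.3, 68.2 and 51.0 in the control and 65.4, 58.2 and 51.5 in the HS libraries (0.04 ± 0.193, adjusted p = 0.959). Both arms overlapped between the groups. bta-miR-2299-3p, in the glycosyltransferase gene B3GLCT, measured 79.1, 65.6 and 70.8 against 85.6, 92.2 and 71.9 (0.21 ± 0.172, adjusted p = 0.692). bta-miR-2387, in the transcription factor gene GTF2IRD1, measured 89.8, 56.5 and 56.0 against 76.3, 91.9 and 78.3 (0.31 ± 0.229, adjusted p = 0.635). These also overlapped. bta-miR-2431-3p was less stable in control cells, with 82.5, 16.7 and 60.2 against 37.8, 50.3 and 36.4 in HS cells (-0.09 ± 0.551, adjusted p = 0.964), and control replicate 2 alone held its low value. Without that library its difference was -0.76 (adjusted p = 0.204). The median standard deviation within groups was 0.300 on the log2 scale over the 38 tested members and 0.266 over all 365 tested miRNAs, and bta-miR-2454-3p and bta-miR-2340, both at a few normalised CPM, had the next largest values among the members (0.827 and 0.799). Their log2 fold changes were 0.61 ± 0.546 (adjusted p = 0.742) and -0.40 ± 0.530 (adjusted p = 0.839).

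**Figure D3:**
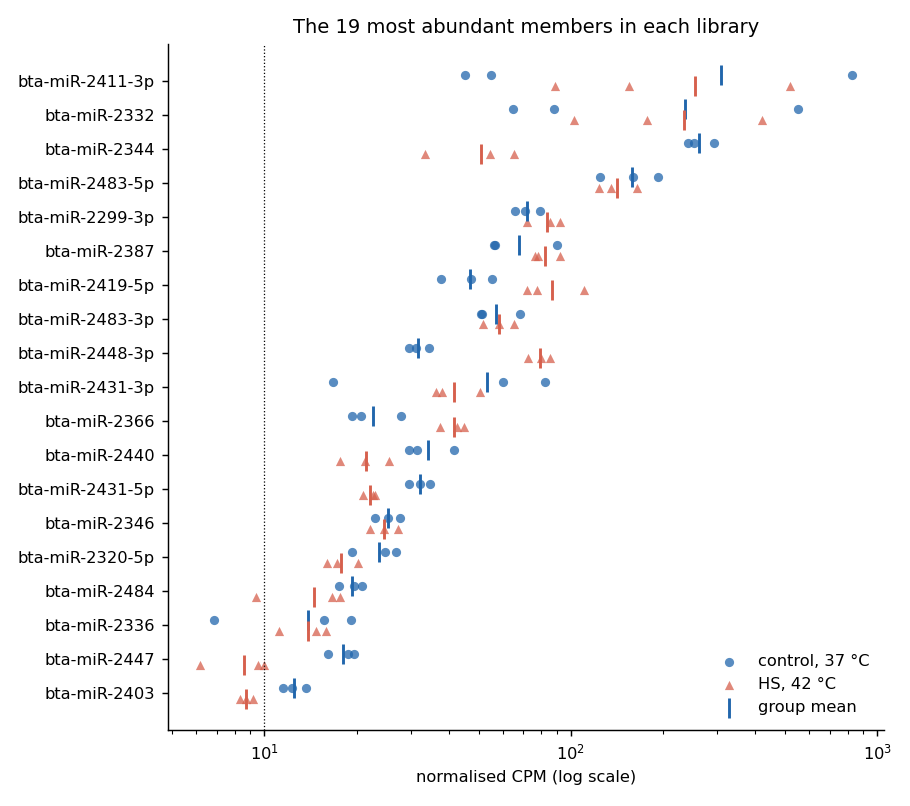
Normalised CPM on a log scale (x axis) in each library of the 19 members with the highest mean (y axis), with control as blue circles, HS as red triangles and group means as vertical bars; the dotted line marks 10 normalised CPM. bta-miR-2344 and bta-miR-2448-3p show groups that lie apart, and bta-miR-2411-3p and bta-miR-2332 show 1 high library in each group.

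The comparison of HS with control cells asked which of the members responded to a temperature above the normal body range. A fold change below is the difference between the group means of log2(value + 1), which understates the change of low miRNAs. The study's rule (adjusted p of at most 0.2 and at least 1 on the log2 scale) was applied here to a limma test, whereas the study used edgeR. By that rule 2 of the 38 tested members were higher in HS cells (5.26%, with 1.1% of all 365 tested miRNAs called) and 4 were lower (10.5%, with 1.92% of all called). The calls differ from those of the study, which included bta-miR-2449, bta-miR-2339 and bta-miR-2477 but not bta-miR-2448-5p. At an adjusted p under 0.05, 3 members were called, 1 higher and 2 lower (7.89%, against 2.19% of all tested). At an adjusted p of at most 0.2 with any fold, 8 members were called, 4 in each direction (21.1%, against 7.12% of all tested). The values of the groups did not overlap for 17 tested members, 9 higher and 8 lower (44.7%, against 20% of all tested). These shares are not read as a property of the members, since a rare miRNA can reach the read minimum of the test through the group where it is high: 13 tested members did not reach it in every library, and bta-miR-2318 and bta-miR-2475 reached it in control libraries only. Among tested miRNAs with a mean of at least 10 normalised CPM over all libraries, 5 of 19 members (26.3%) and 23 of 276 miRNAs (8.33%) had an adjusted p of at most 0.2. This cut has the same limit, since bta-miR-2447 and bta-miR-2403 reached it through control cells, with HS means of 8.55 and 8.72. The median log2 fold change was 0.041 over the tested members and -0.0015 over all tested miRNAs, and 23 of the 38 lay within 0.5 of 0.

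bta-miR-2344 showed the largest decrease of the tested members on the log2(value + 1) scale, while bta-miR-2318, described below, fell further in linear means. This miRNA lies in TBCD, a gene for a tubulin-folding cofactor. It measured 292, 241 and 252 in the control and 54.4, 65.0 and 33.4 in the HS libraries, so that each HS library was far below each control library. The mean fell from 262 ± 27.0 to 50.9 ± 16.1 (SD, n = 3), a 5.14-fold lower level and a log2 fold change of -2.39 ± 0.261 (SE, adjusted p = 0.00745). Across the 15 alternatives in processing its fold change ran from -2.58 to -2.11, and the call held in all 15 (adjusted p = 1.3e-13 to 0.0400).

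bta-miR-2448-3p showed the largest increase of the tested members on the log2(value + 1) scale. No gene of the RefSeq annotation overlaps this hairpin. It measured 31.2, 34.3 and 29.5 in the control and 72.3, 85.1 and 79.6 in the HS libraries, and the replicates lay close together in both groups. The mean rose from 31.7 ± 2.43 to 79.0 ± 6.41 (SD, n = 3), 2.49-fold, with a log2 fold change of 1.29 ± 0.163 (SE, adjusted p = 0.0117). The call held in all 15 alternatives (1.108 to 1.352, adjusted p = 7.3e-10 to 0.0835). Its 5p partner was rare but also higher: bta-miR-2448-5p measured 0.976, 1.74 and 3.06 in the control and 5.64, 3.54 and 5.75 in the HS libraries, with 2, 8 and 11 against 17, 13 and 27 reads. The linear means rose 2.58-fold, and its log2 fold change was 1.07 ± 0.328 (SE) with an adjusted p of 0.199, at the edge of the threshold. The adjusted p was 0.284 without control replicate 1, 0.287 without control replicate 2, 0.423 without HS replicate 1, 0.323 without HS replicate 2 and 0.496 without HS replicate 3, and it stayed past the threshold only without control replicate 3 (0.199).

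Of the other members that were lower in HS cells, bta-miR-2318 was near the limit of detection. This miRNA lies in MADD, a gene of MAP kinase and small GTPase signalling. It measured 4.88, 10.9 and 9.47 in the control and 1.99, 1.63 and 0.851 in the HS libraries, from 10, 50 and 34 against 6, 6 and 4 reads. The groups did not overlap, and the linear means were 5.64-fold apart, with a log2 fold change of -1.88 ± 0.339 (SE, adjusted p = 0.0463). In edgeR on recovered reads the log2 fold change was -2.60, against -2.38 for bta-miR-2344, and with pseudocount 5 that of bta-miR-2318 was -1.02. It stayed past an adjusted p of 0.2 in the 14 alternatives in which it was tested (0.00036 to 0.199), but among omissions of a library it passed 0.05 only without control replicate 1 (0.0162). Without control replicates 2 and 3 in turn the adjusted p was 0.147 and 0.199, and without HS replicates 1, 2 and 3 in turn it was 0.129, 0.180 and 0.184.

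bta-miR-2447 lies in LIN54, which encodes a DNA-binding part of the DREAM cell cycle complex. It measured 19.5, 16.1 and 18.7 in the control and 9.95, 9.52 and 6.17 in the HS libraries, with the groups apart, and its log2 fold change was -1.02 ± 0.232 (SE, adjusted p = 0.0987). This change was 2.12-fold on the linear scale. The adjusted p was 0.302 without control replicate 3, 0.251 without HS replicate 2 and 0.288 without HS replicate 3. Without control replicate 1 and with pseudocount 5 its fold change was under 1 in size (-0.97 and -0.78), which ended the call by the study's rule. bta-miR-2475 lies in the aminopeptidase gene AOPEP and measured 4.88, 3.48 and 3.62 in the control and 0.995, 1.90 and 0.851 in the HS libraries (-1.17 ± 0.262, adjusted p = 0.0987), from 10, 16 and 13 against 3, 7 and 4 reads. Here too the groups did not overlap. Its adjusted p was 0.280 without control replicate 3, 0.326 without HS replicate 1 and 0.369 without HS replicate 3, and its fold change was -0.53 with pseudocount 5.

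Within 10 kb of the bta-miR-2475 hairpin, the annotation places the hairpins of miR-23b, miR-27b and miR-24-1, which are abundant in many tissues. bta-miR-23b-3p had a control mean of 4354 ± 667 and an HS mean of 4294 ± 750 (SD, n = 3), with a log2 fold change of -0.02 ± 0.174 (SE, adjusted p = 0.969). For bta-miR-27b the fold change was -0.0015 ± 0.224 (adjusted p = 0.997), and for bta-miR-24-3p, which more than one hairpin can give, it was -0.00026 ± 0.127 (adjusted p = 0.998). The neighbours of bta-miR-2475 were thus measured at close to the same level in both groups, while the member itself was lower in HS cells, and the difference between these changes was not tested.

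A pair of members was higher in HS cells at less than 1 on the log2 scale. bta-miR-2366, in the microtubule-associated protein gene MAP1A, measured 27.8, 19.3 and 20.6 in the control and 42.5, 44.9 and 37.5 in the HS libraries (0.87 ± 0.203, adjusted p = 0.107). bta-miR-2419-5p, whose hairpin overlaps no annotated gene, measured 37.6, 47.4 and 55.4 in the control and 77.6, 72.1 and 110 in the HS libraries (0.87 ± 0.236, adjusted p = 0.140). Neither overlapped between the groups, with linear means 1.84-fold and 1.85-fold higher in HS cells. For bta-miR-2366 the adjusted p was 0.302 without control replicate 3, 0.326, 0.323 and 0.288 without HS replicates 1, 2 and 3 in turn, and 0.0408 without control replicate 1, where its fold change was 1.02. For bta-miR-2419-5p each omission of a library ended the call: the adjusted p was 0.222, 0.204 and 0.261 without control replicates 1, 2 and 3 in turn and 0.326, 0.291 and 0.435 without HS replicates 1, 2 and 3 in turn.

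**Figure D4:**
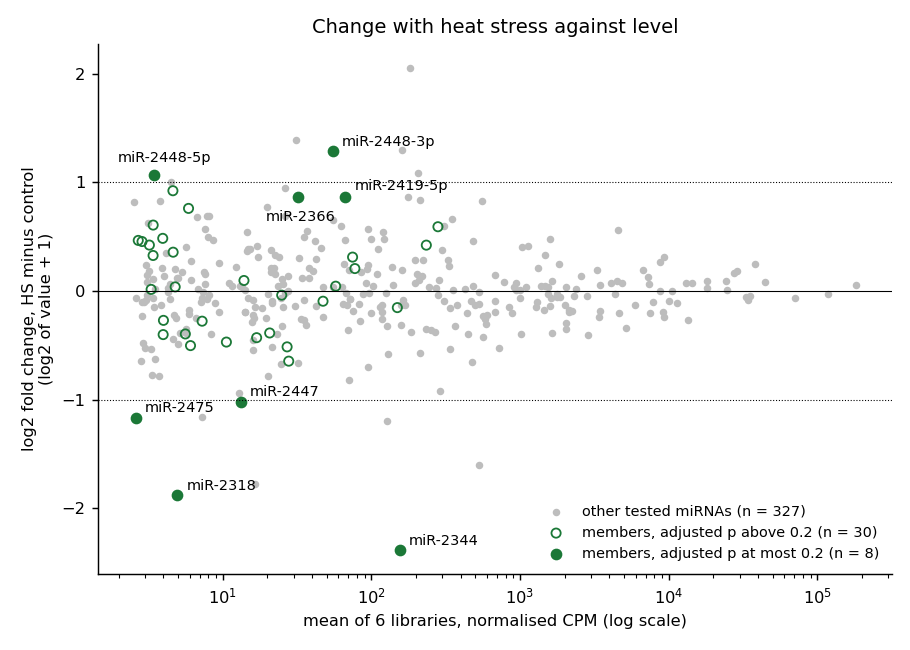
Log2 fold change of HS over control (y axis, log2 of value + 1) against the mean normalised CPM of the 6 libraries on a log scale (x axis) for the 365 tested miRNAs, with members in green and filled where the adjusted p is at most 0.2. The 8 filled members run from -2.39 (bta-miR-2344) to 1.29 (bta-miR-2448-3p), and dotted lines mark 1 and -1.

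Several further members had groups that did not overlap without passing the threshold. bta-miR-2339, in the tRNA-processing gene ELAC2, measured 2.44, 1.96 and 4.46 in the control and 4.98, 7.34 and 6.60 in the HS libraries (0.92 ± 0.293, adjusted p = 0.214), and without control replicate 3 it was past the threshold (1.18, adjusted p = 0.199). bta-miR-2350, in the membrane-bending protein gene BIN1, measured 4.88, 2.82 and 4.74 against 7.30, 9.25 and 6.39 (0.76 ± 0.258, adjusted p = 0.246). Both had higher values in every HS library. bta-miR-2440 lies in RPL3, a gene for a protein of the large ribosomal subunit, where the annotation also has 4 small non-coding RNA genes within 10 kb, and it measured 41.5, 31.5 and 29.5 in control against 25.5, 21.2 and 17.7 in HS cells (-0.65 ± 0.222, adjusted p = 0.247). Such genes also lie within 10 kb of other members, among them bta-miR-2431 (2 genes), bta-miR-2411 (1 gene) and bta-miR-2397 (1 gene). bta-miR-2403, in the transporter gene SLC16A9, measured 13.7, 11.5 and 12.3 against 8.30, 8.70 and 9.15 (-0.47 ± 0.180, adjusted p = 0.298). bta-miR-2440 and bta-miR-2403 had lower values in every HS library, and bta-miR-2403 counted as detected in control cells alone since the minimum of 10 normalised CPM lay between its groups.

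None of the remaining tested products of hairpins with both arms passed the threshold. bta-miR-2320-5p measured 26.9, 19.3 and 24.8 against 17.3, 20.1 and 16.0 in HS libraries (-0.39 ± 0.204, adjusted p = 0.441). bta-miR-2313-3p and bta-miR-2313-5p, in the sterol transfer protein gene GRAMD1B, differed by -0.40 ± 0.223 (adjusted p = 0.481) and 0.33 ± 0.405 (adjusted p = 0.839). The groups overlapped for bta-miR-2320-5p and bta-miR-2313-5p but not for bta-miR-2313-3p (5.86, 5.87 and 7.80 against 4.31, 4.08 and 5.75). bta-miR-2397-5p, in the glutaredoxin gene GLRX3, differed by 0.36 ± 0.221 (adjusted p = 0.541) without overlap, and bta-miR-2388-3p, in the transcription factor gene CUX1, by 0.47 ± 0.324 (adjusted p = 0.614) with overlap. The minor arms of the hairpins with a single tested arm were too rare to test: bta-miR-2299-5p had 19 control and 15 HS reads, bta-miR-2382-3p 7 and 6, bta-miR-2419-3p 5 and 8, bta-miR-2388-5p 5 and 2, bta-miR-2454-5p 4 and 2, and bta-miR-2320-3p 1 and 3. The exact 95% intervals of the ratio of these 6 included 1, whereas that of bta-miR-2397-3p, with 4 control and 16 HS reads, did not (3.597-fold higher in HS, 1.16 to 14.8, counting error only). The study lists bta-miR-2397-3p from these same libraries, so its difference was selected for.

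Of the members with a single product, bta-miR-2346 was the steadiest above 20 normalised CPM, with 22.9, 27.6 and 25.4 in control against 24.6, 27.2 and 22.1 (-0.04 ± 0.179, adjusted p = 0.959). bta-miR-2336 was detected at 6.84, 15.6 and 19.2 against 15.9, 11.1 and 14.7 (0.10 ± 0.375, adjusted p = 0.959), with control replicate 1 below the others. bta-miR-2484 measured 19.5, 20.9 and 17.6 against 16.6, 17.7 and 9.37 (-0.43 ± 0.268, adjusted p = 0.541), with HS replicate 3 the lowest. These groups overlapped. bta-miR-2404 measured 10.7, 5.87 and 5.29 against 6.97, 4.62 and 2.98 (-0.50 ± 0.355, adjusted p = 0.614), highest in replicate 1 of each group.

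In 34 hairpins both arms were listed as members (68 names), and the other 172 members had a single product in the tables. At least 1 arm was tested in 12 of these hairpins, of which 5 gave most of their reads from the 5p arm and 7 from the 3p arm. bta-miR-2419 (99.1% of 1525 reads on 5p) and bta-miR-2320 (99.1% of 438 reads on 5p) used the 5p arm almost alone. bta-miR-2411 (98.2% of 4722 reads on 3p), bta-miR-2299 (98.0% of 1687 reads on 3p), bta-miR-2448 (94.1% of 1311 reads on 3p) and bta-miR-2454 (92.0% of 75 reads on 3p) used the 3p arm. Thus 6 of the 12 hairpins gave at least 90% of their reads from 1 arm. The products of bta-miR-2483 were more even, with 71.2% on 5p.

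The arm used was also compared between the groups in the 5 hairpins with both arms tested. For bta-miR-2448, the 5p arm held 3.03%, 4.82% and 9.40% of control reads against 7.23%, 3.99% and 6.73% in HS cells, so that its arm use overlapped between the groups while both products were higher in HS cells. For bta-miR-2411 the 5p arm held 0.296%, 8.0% and 5.29% in the control and 1.08%, 2.90% and 4.36% in the HS libraries, lowest in replicate 1 of each group. For bta-miR-2431 it held 29.6%, 65.8% and 32.9% against 35.6%, 31.0% and 38.7%, and control replicate 2 stood apart. The log2 ratio of 5p to 3p differed between HS and control by -0.22 for bta-miR-2448, -0.11 for bta-miR-2411, -0.42 for bta-miR-2431, -0.20 for bta-miR-2483 and 0.72 for bta-miR-2313. The two-sided exact permutation tests of these 5 ratios gave p = 0.2 to 1.0, each 1.0 after Benjamini-Hochberg adjustment, where 0.1 is the smallest p possible. Between the arms of bta-miR-2431, the groups overlapped for bta-miR-2431-3p but not for bta-miR-2431-5p (34.7, 32.2 and 29.5 against 20.9, 22.6 and 23.0, a log2 fold change of -0.51 ± 0.167, adjusted p = 0.220).

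**Figure D5:**
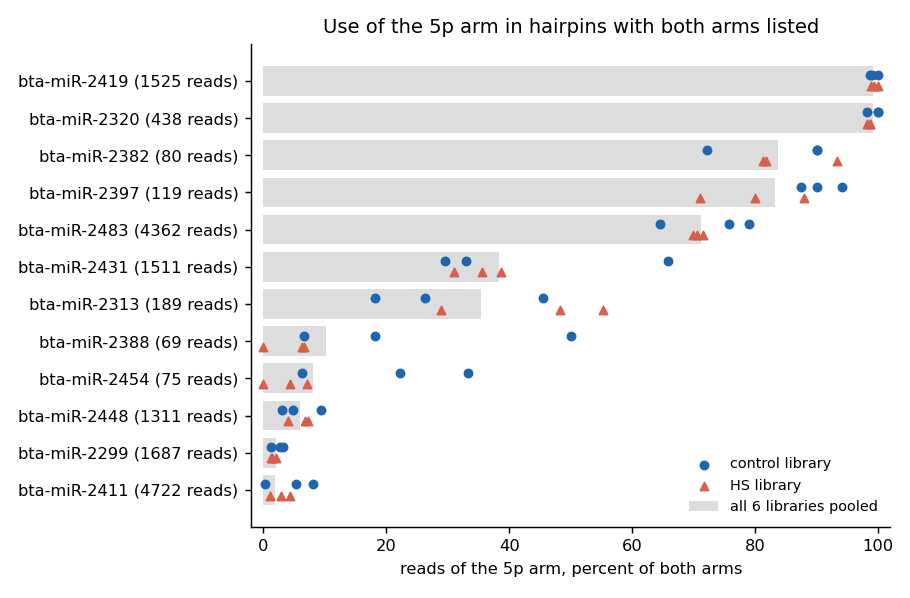
Reads of the 5p arm as a percent of the reads of both arms (x axis) in 12 hairpins (y axis, with the total reads), as a grey bar for all libraries pooled and as points for control (blue circles) and HS libraries (red triangles). The bars split into 5 hairpins with mostly 5p and 7 with mostly 3p reads, and the points of bta-miR-2388, the hairpin with the fewest reads (69), spread the most, from 0 to 50%.

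Most members lie inside other genes. Of the 240 members, 237 matched a miRNA gene of the RefSeq annotation (the tables were made on another assembly than its ARS-UCD2.0), and 187 of these (78.9%) overlapped a protein-coding gene, 12 overlapped only a non-coding gene and 38 overlapped none. The share was close to this among miRNAs from miR-2491 to miR-10999 (76.0%) and from miR-11000 upward (77.9%). It was 69.3% for the miR-2284 and miR-2285 rows, 67.7% over all matched miRNAs and 56.0% of those numbered below miR-2284 with let-7. The annotation used gave no strand, so a member may lie on either strand of its host. The huntingtin gene HTT held 5 members, bta-miR-2450a to bta-miR-2450d and bta-miR-2451, of which bta-miR-2450c had 98 reads over the 6 libraries and bta-miR-2450a had 80, while bta-miR-2450b and bta-miR-2451 had 1 each and bta-miR-2450d had none. The 2 measured ones did not differ detectably between the groups (0.04 ± 0.297, adjusted p = 0.969, and -0.27 ± 0.391, adjusted p = 0.844).

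Other neighbourhoods joined a member to a well known miRNA. bta-miR-2443 lies within 10 kb of the hairpins of let-7a-3 and let-7b, and it measured 7.32, 8.26 and 8.36 in the control and 5.64, 8.97 and 5.11 in the HS libraries (-0.28 ± 0.245, adjusted p = 0.732). bta-let-7b had a control mean of 27266 ± 4948 and an HS mean of 30656 ± 2633 (SD, n = 3), with a log2 fold change of 0.18 ± 0.142 (SE, adjusted p = 0.656). bta-miR-2382-5p, in the phosphatase gene PGP and near miR-1842, measured 4.39, 2.82 and 2.51 against 4.65, 3.54 and 1.92 (0.02 ± 0.318, adjusted p = 0.981), whereas bta-miR-1842 had a control mean of 42.7 ± 1.28 and an HS mean of 68.5 ± 9.79 (SD, n = 3), with 0.66 ± 0.173 (SE, adjusted p = 0.135). Thus bta-miR-1842 passed an adjusted p of 0.2 and bta-miR-2382-5p did not, and the difference between their changes was not tested.

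The 105 members with reads but no test held 3.87% of the member reads, with a median of 6 reads over the 6 libraries and at most 64. A single read was the only evidence for 20 of them, and 44 had at most 3 reads. Reads came from both groups for 74, from control cells only for 16 and from HS cells only for 15, and no member seen in a single group had more than 4 reads, so an absence from either group was not detectable at this depth. The 3 most abundant were bta-miR-2427 (64 reads), bta-miR-2416 (46 reads) and bta-miR-2468 (43 reads).

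A few of these rare members, named because the study lists them, had uneven read counts. The study drew its list from these same libraries, so such counts were selected for and are not independent evidence. The ratios below compare reads over the pooled libraries after division by their total reads, with exact 95% intervals that cover counting error only and not the spread between libraries. bta-miR-2477, in HDDC2, a gene of nucleotide metabolism, had 3, 7 and 10 control reads against 1, 0 and 0 HS reads, a 22.2-fold ratio of control over HS (3.56 to 922). bta-miR-2449, in the lysosomal iduronidase gene IDUA, had 0, 4 and 2 control reads against 10, 13 and 7 HS reads, a 4.50-fold ratio of HS over control (1.84 to 13.2). In each case the groups did not overlap in reads. bta-miR-2427, in the growth factor signalling gene FRS2, had 3, 21 and 20 against 5, 8 and 7 reads, a 2.45-fold ratio of control over HS (1.41 to 4.38), with control replicate 1 below all HS libraries. bta-miR-2400, in the histone methyltransferase gene NSD3, had 2, 4 and 4 against 8, 6 and 16 reads, a 2.70-fold ratio of HS over control (1.28 to 6.19). When all 755 miRNAs with a read were fitted without a filter, the adjusted p was 0.0515 for bta-miR-2477, 0.199 for bta-miR-2449, 0.654 for bta-miR-2427 and 0.357 for bta-miR-2400. With the filter, bta-miR-2427 was called lower in HS cells without control replicate 1, and bta-miR-2449 was called higher without control replicate 2 and without HS replicate 3. bta-miR-2389 (5 against 20 reads), bta-miR-2314 (11 against 2) and bta-miR-2397-3p (4 against 16) had adjusted p-values of 0.418, 0.321 and 0.415 in the same fit.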

How the data were processed

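miRNA expression was measured in 6 small RNA libraries of bovine granulosa cells, 3 control and 3 HS. The authors made the libraries from 100 ng RNA with the QIAseq kit (16 PCR cycles), trimmed reads with Cutadapt 1.11, collapsed unique molecular identifiers, mapped with Bowtie2 2.2.2 to bovine UMD 3.1 and miRBase, and deposited a signal per miRNA that is a normalised CPM, a read count scaled to library size with TMM factors of edgeR. Whole reads were recovered from the steps of these values (each value within 0.01 of a whole read). The libraries were not copies of each other by a chi-square check of their counts. Exact zeros are 0 reads.

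Members and lists were chosen with earlier results of these data known. Rows of 1 number in the range are not reported here, and shared seeds were not analysed here. miRNAs passing the filterByExpr read filter of edgeR 4.0.16 (minimum count 10) were tested with limma 3.58.1 (trended variance, pseudocount 1 on log2 values) in R 4.3.3, and p-values were adjusted by Benjamini-Hochberg over all 365. No covariate was used. Named members were those with an adjusted p of at most 0.2, the 10 most abundant, those detected in only 1 group, those the study lists, both arms of tested hairpins, and the 5 most variable; bta-miR-2350, bta-miR-2440, bta-miR-2443, bta-miR-2346, bta-miR-2336, bta-miR-2484, bta-miR-2404, bta-miR-2416, bta-miR-2468 and the members in HTT were named after their values were seen. Shares used exact permutation tests (scipy 1.17.1). The scripts were tested on simulated data. Alternatives were filters, pseudocount 5, edgeR's quasi-likelihood test and DESeq2 1.42.0 on recovered reads, other scalings, a replicate block and omission of each library.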

Additional observations from a re-analysis of the deposited data

How the results depend on the processing

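bta-miR-2344, bta-miR-2448-3p and bta-miR-2318 kept their direction and stayed past an adjusted p of 0.2 in every alternative in which they were tested (15, 15 and 14). bta-miR-2318 reached the read minimum only in control libraries, where it was high, and the detection filter removed it. Its log2 fold change ran from -2.60 to -1.02, so its calls are weaker evidence than those of the other members named here. The number of members higher in HS cells was 2 and became 1 with the detection filter, pseudocount 5, edgeR's quasi-likelihood test, DESeq2, upper quartile scaling, library totals and the replicate block, and it ran from 1 to 3 over the omissions of 1 library. The number lower was 4 and became 2 with the detection filter and with pseudocount 5, and from 2 to 4 over these omissions. Different members made up these counts: bta-miR-2366, bta-miR-2427, bta-miR-2339 or bta-miR-2449 entered in some omissions, bta-miR-2449 and bta-miR-2477 entered without the filter, and bta-miR-2447, bta-miR-2475 or bta-miR-2448-5p dropped out of some. At an adjusted p under 0.05 there were 3 members, 6 with DESeq2, and from 1 to 4 with 1 library omitted. DESeq2 gave no adjusted p for 8 tested members, bta-miR-2475 and bta-miR-2448-5p among them. Without the filter on low values, bta-miR-2447, bta-miR-2366, bta-miR-2419-5p and bta-miR-2448-5p missed the threshold (adjusted p = 0.211, 0.211, 0.226 and 0.337). Members detected in control cells were 53 at a minimum of 1 and 2 at 100 normalised CPM, and in HS cells 57 and 3. The difference in the share of reads ran from -0.0464 to 0.0258 percentage points when a library was left out, positive only without control replicate 1.

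Over 27 named members, 387 comparisons with an alternative gave 322 without change of direction or call, 32 that lost and 7 that gained the call and 26 with the opposite sign, 17 of these with a library left out. None of the members with an opposite sign had passed the threshold in the main fit. bta-miR-2411-3p passed it with both replicate 1 libraries left out (1.22, limma adjusted p = 0.180). bta-miR-2411-3p was at -0.28 with edgeR and -0.28 with DESeq2 and between -0.15 and 1.93 with a library left out; bta-miR-2332 was at -0.010 with edgeR, -0.0057 with DESeq2 and between -0.16 and 1.37. With both replicate 1 libraries left out, bta-miR-2483-3p was at -0.11, bta-miR-2431-3p at 0.41 and bta-miR-2382-5p at -0.010. Upper quartile scaling, which moved the median of all tested miRNAs to -0.18, put bta-miR-2483-3p at -0.14 and bta-miR-2382-5p at -0.13. With a library left out, bta-miR-2483-3p ran from -0.039 to 0.18, bta-miR-2431-3p from -0.76 to 0.35, bta-miR-2340 from -0.79 to 0.054, bta-miR-2313-5p from -0.018 to 0.66 and bta-miR-2382-5p from -0.20 to 0.28. The cause was not tested.

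Whether the replicate numbers pair the samples could not be settled. Deviations of same-numbered libraries correlated at 0.421, -0.117 and 0.616. Control replicates 1 and 3 correlated best with the HS library of the same number, and control replicate 2 with HS replicate 3 (0.240). Such correlations from 3 libraries a group cannot decide the question. With the replicate block, 1 member was called higher, 4 lower and 2 at an adjusted p under 0.05, and bta-miR-2448-5p lost its call (adjusted p = 0.204). The paired difference in the share of reads was -0.0211 percentage points (exact sign-flip test, p = 0.75, where 0.25 is the smallest possible). With 3 libraries a group, members with a few reads mostly fell below the read minimum, and 38 of the 240 were tested.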
